A study of Homo sapiens with 6 samples.

Results

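The 10 genes described here are regulators and markers of the epithelial-to-mesenchymal transition (EMT) and of the epithelial state, with the addition of GATA6. They are the transcription factors SNAI1, SNAI2, ZEB1 and ZEB2, the cadherins CDH1 and CDH2, the intermediate filament gene VIM, the epithelial genes EPCAM and GRHL2, and GATA6. The members were found by their gene symbol, and each matched 1 of the 47577 loci of the deposited table, of which 26793 carry a symbol. Of the 10 genes, 9 passed the minimum for expression (10 normalized reads or more in 3 or more of the 6 libraries), which 17568 loci passed. SNAI2 did not pass.

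PolyA RNA was sequenced from OVCAR3, an established cell line of high-grade serous ovarian adenocarcinoma. There were 3 biological repeats exposed to the solvent DMSO and 3 exposed to 200 nM THZ531, all for 6 h and all of this single line. THZ531 is a covalent inhibitor of CDK12 and CDK13, kinases that phosphorylate the C-terminal domain of RNA polymerase II and sustain transcription elongation. The titles of the libraries name THZ531, whereas the protocol text in the labels names the related compound THZ1. Values are normalized reads per locus, obtained by dividing the reads of each library by its size factor, and are not corrected for gene length. In such bulk libraries fewer cells of a kind cannot be told apart from less RNA per cell.

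The reads counted on genes numbered 60146046 to 70986130 per DMSO library and 53054048 to 57953296 per THZ531 library. All 10 of 10 serous ovarian markers, such as PAX8, WT1, MUC16 and KRT7, passed the minimum, with a summed level of 153344 to 162163 normalized reads in DMSO and 154602 to 160824.5 in THZ531. KRT7 made up most of this sum (mean 134115.7), and the other 9 markers together were at 27139.5 to 28210.1 in DMSO and 18995.4 to 19486.2 in THZ531. PAX8 was the single marker of the 10 called lower, and none was called higher, where 23.9% of all loci tested were called lower and 15.7% higher. Of 5 immune markers 2 passed, CD3E was at 0 in every library, and their summed level was 413.6 to 496.3 in DMSO and 405.8 to 489.9 in THZ531. CD68 made up most of this sum (mean 407.3), and the rest was at 25.4 to 52.7 in DMSO and 18.2 to 30.2 in THZ531. All 4 endothelial markers passed at low levels, with a summed level of 231.0 to 286.4 in DMSO and 308.0 to 419.8 in THZ531. Of these, VWF and KDR were called higher and none lower, where 15.7% of all loci tested were called higher.

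In EMT, epithelial cells loosen their contacts and take on the shape and motility of mesenchymal cells. The zinc finger proteins of the Snail family (SNAI1, SNAI2) and the ZEB family (ZEB1, ZEB2) bind E-box motifs and repress epithelial genes, above all CDH1, which encodes E-cadherin, the adhesion molecule of adherens junctions. Loss of E-cadherin with gain of N-cadherin (CDH2) and vimentin (VIM) is the classical sign of the transition. GRHL2 is a transcription factor that sustains epithelial genes and opposes ZEB1. EPCAM is a surface adhesion molecule of epithelia. GATA6 is a zinc finger transcription factor best known from endoderm. ZEB1 and ZEB2 transcripts are also classical targets of microRNAs of the miR-200 family and of miR-205.

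The sequences below are stretches before the locus starts of ZEB1 and GATA6, and microRNAs of the kinds named above. No stretch before CDH1 is shown. The first is the stretch before the start of the ZEB1 locus, shown because ZEB1 and the antisense RNA that runs across its start were called in opposite directions. In RefSeq's promoter windows (GRCh38.p14), 5 of the 10 symbols matched (ZEB1, ZEB2, CDH2, VIM and GATA6), and SNAI1, SNAI2, CDH1, EPCAM and GRHL2 did not. The ZEB1 stretch lies at chr10:31318167-31318416 on the plus strand, within the span of ZEB1-AS1, and the capitals mark the E-box CAGGTG, which was searched on both strands (CACCTG on the printed strand). The match begins 57 bases before the locus start. RefSeq gives 7 windows for ZEB1, of which another, inside the locus, held 2 matches and 5 held none. The other members had 1 window each, or 2 for CDH2, and no match. This motif was present in 6143 of 35116 windows of 250 bases (17.5%), so its presence is a description and not a sign of binding.
ZEB1: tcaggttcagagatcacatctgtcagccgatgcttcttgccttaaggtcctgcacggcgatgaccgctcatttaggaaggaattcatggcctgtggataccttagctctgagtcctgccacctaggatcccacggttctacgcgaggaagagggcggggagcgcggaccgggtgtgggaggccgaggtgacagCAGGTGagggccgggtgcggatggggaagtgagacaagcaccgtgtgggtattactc
The second stretch precedes the locus start of GATA6, the member with the largest change, at chr18:22169339-22169442 on the plus strand. It is the part of the 250-base window that lies outside the GATA6 locus, and no CAGGTG was found in these 104 bases on either strand.
GATA6: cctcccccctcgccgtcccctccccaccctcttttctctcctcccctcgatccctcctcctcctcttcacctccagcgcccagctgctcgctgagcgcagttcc

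The microRNAs are shown because their host genes were among the transcripts tested here. MIR200CHG carries miR-200c and miR-141, and MIR205HG carries miR-205. The mature sequences are from RefSeq (GRCh38.p14), and the capitals mark the seed, bases 2 to 8. They lie at chr12:6963742-6963764, chr12:6964155-6964176 and chr1:209432166-209432187, all on the plus strand.
hsa-miR-200c-3p: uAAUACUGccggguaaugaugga
hsa-miR-141-3p: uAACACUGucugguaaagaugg
hsa-miR-205-5p: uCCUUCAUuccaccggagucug
In the 3' untranslated region of the MANE transcript in GENCODE v44, exact matches to the miR-200c seed numbered 6 in ZEB1 and 5 in ZEB2, and matches to the miR-141 seed numbered 3 and 4. Among the untranslated regions of 18780 genes, 16.4% held a match to the miR-200c seed and 18.5% to the miR-141 seed. The other members held at most 1 match to either of these seeds. For miR-205 only ZEB1 among the members held a match, and it had 1, against 11.6% of the 18780 genes. These regions are 2540 bases long in ZEB1, 5370 in ZEB2 and 322 to 3023 in the other members. A longer region has more room for matches, and the part of length in these counts was not tested. GRHL2, with 3023 bases, held 0 matches to the miR-200c seed and 1 to the miR-141 seed. PolyA libraries do not measure mature microRNAs.

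SNAI1 had the largest log2 fold change of the tested Snail and ZEB genes among the members. It was at 280.2, 281 and 291 normalized reads in DMSO replicates 1, 2 and 3, and at 811, 777.5 and 720.2 in THZ531 replicates 1, 2 and 3. The groups lay far apart, and the spread within each was small. The mean rose from 284 ± 6.1 to 769.6 ± 46.0 (SD, n = 3), and the log2 fold change was 1.43 (SE 0.092, 95% interval 1.24 to 1.63, adjusted p = 1.2e-09, limma). This is a 2.699-fold increase, beyond 95.3% of all loci tested.

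SNAI2, the second Snail factor, was near 0 in all libraries. It had 0, 2 and 0 reads in DMSO and 0, 2 and 1 in THZ531, out of at least 53054048 reads per library. SNAI2 had at most 2 reads in any library, and no fold change is given. A count of 0 allows up to 3 reads, which corresponds to 2.38 to 3.78 normalized reads. That bound holds for the libraries with 0 reads. These limits cover counting error only.

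The ZEB genes were weakly expressed and were called in opposite directions with the deposited scaling, while ZEB1 was not called with 2 other scalings given further on. ZEB1 was at 57.2, 35.3 and 60.6 normalized reads in DMSO and at 73.0, 92.1 and 104 in THZ531. All THZ531 libraries were above all DMSO libraries, by a narrow margin, and DMSO replicate 2 was the lowest. The mean rose from 51.0 ± 13.8 to 89.5 ± 15.4 (SD, n = 3), with a log2 fold change of 0.82 (SE 0.27, 95% interval 0.25 to 1.39, adjusted p = 0.012, limma). ZEB2 was at 123, 129 and 132 normalized reads in DMSO and at 94.5, 67.1 and 92.2 in THZ531. Here every THZ531 library lay below every DMSO library, with THZ531 replicate 2 the lowest. The mean fell from 128 ± 4.8 to 84.6 ± 15.2 (SD, n = 3), with a log2 fold change of -0.61 (SE 0.20, 95% interval -1.03 to -0.18, adjusted p = 0.013, limma). This fall was at percentile 25.6 of all loci tested. Both calls rested on a single library. Without DMSO replicate 2 the log2 fold change of ZEB1 was 0.582, and without THZ531 replicate 2 that of ZEB2 was -0.45. Both were under the threshold of 1.5-fold (0.585 on the log2 scale), ZEB1 by a narrow margin.

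GATA6 had the largest increase of the 10 genes. It was at 51.6, 48.2 and 116 normalized reads in DMSO and at 227, 252 and 266 in THZ531. The groups did not overlap, although DMSO replicate 3 was more than 2-fold above the other DMSO libraries. The mean rose from 72.1 ± 38.5 to 248 ± 20.05 (SD, n = 3), with a log2 fold change of 1.89 (SE 0.27, 95% interval 1.32 to 2.45, adjusted p = 1e-05, limma), which is 3.70-fold. Without DMSO replicate 3 the log2 fold change was 2.29. GATA6 is one of the genes that the study chose from these same libraries for a qPCR assay. The paper ran the assay on separate OVCAR3 cells and reports that it bore out the RNA-seq predictions. The values here come from the libraries that led to the choice, so their direction is not independent of that choice. The primers of that assay, printed here in lower case, match coding sequence in exons 4 and 5 of the MANE transcript, at chr18:22181483-22181502 on the plus strand and chr18:22182759-22182777 on the minus strand (hg38). The deposited value covers the whole gene and not this stretch alone.
GATA6 ex4 fw: gccaactgtcacaccacaac
GATA6 ex5 rv: catagcaagtggtctgggc

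CDH1, which encodes E-cadherin, was abundant and was higher in THZ531, by less than 1.5-fold. It was at 5268, 5198 and 5019.5 normalized reads in DMSO and at 6727, 6815 and 6635 in THZ531. The groups did not overlap and each was tight. The mean was 5162 ± 128 in DMSO and 6725 ± 89.8 in THZ531 (SD, n = 3), with a log2 fold change of 0.38 (SE 0.039, 95% interval 0.30 to 0.46, adjusted p = 2.7e-07, limma).

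CDH2, which encodes N-cadherin, was close to the minimum for expression. It was at 34.9, 56.6 and 52.7 normalized reads in DMSO and at 31.5, 54.6 and 42.1 in THZ531, which rest on 25 to 66 reads per library. The groups overlapped almost completely. The log2 fold change was -0.17 (SE 0.31, adjusted p = 0.64, limma), and its 95% interval from -0.84 to 0.50 does not show that the level stayed the same. Thus no difference was detectable at this depth.

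The mesenchymal marker VIM and the epithelial marker EPCAM were both higher in THZ531, to a like degree. VIM, the gene of the intermediate filament protein vimentin, was at 1743, 1589.5 and 1862 normalized reads in DMSO and at 2106, 2145 and 2038 in THZ531. EPCAM was at 20629.5, 21344 and 21693 in DMSO and at 26386, 25727 and 26468 in THZ531. In neither gene did the groups overlap. The log2 fold change of VIM was 0.28 (SE 0.061, 95% interval 0.15 to 0.41, adjusted p = 0.00077, limma), and that of EPCAM was 0.30 (SE 0.033, 95% interval 0.23 to 0.37, adjusted p = 5.8e-07, limma).

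GRHL2, the transcription factor that sustains epithelial genes, was slightly lower in THZ531. It was at 1273, 1349 and 1246 normalized reads in DMSO and at 1112, 1171 and 1166 in THZ531. The groups did not overlap, but the gap between them was small. The log2 fold change was -0.17 (SE 0.062, 95% interval -0.30 to -0.03, adjusted p = 0.027, limma). The unadjusted p (limma) was 0.086 without DMSO replicate 2 and 0.065 without THZ531 replicate 1.

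**Figure D1:**
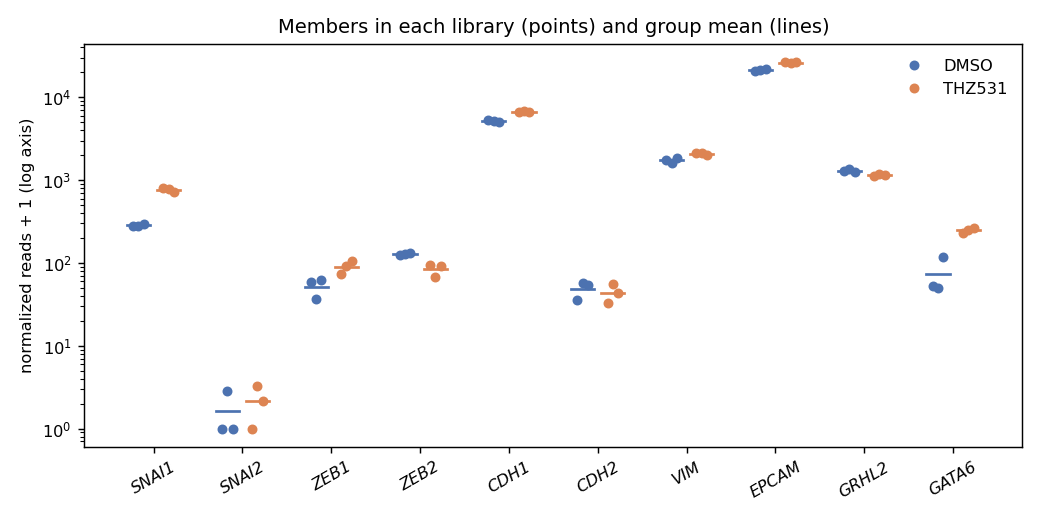
Normalized reads plus 1 of the 10 genes (log axis) in each DMSO library (blue) and each THZ531 library (orange), with the group mean as a line. SNAI1 and GATA6 show the widest gaps between the groups, CDH2 overlaps, and SNAI2 has at most 2 reads in any library.

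Of the 9 tested genes, 4 were called, which required a 1.5-fold difference together with a limma p-value no higher than 0.05 before adjustment. SNAI1, ZEB1 and GATA6 were called higher (3 genes), where 15.7% of all loci tested were called higher, and ZEB2 was called lower (1 gene), where 23.9% of all loci were called lower. With adjusted p ≤ 0.05 and any fold, 6 of the 9 were higher (SNAI1, ZEB1, CDH1, VIM, EPCAM and GATA6), against 34.6% of all loci, and 2 were lower (ZEB2 and GRHL2), against 34.1%. The groups did not overlap for the same 8 genes, 6 upward and 2 downward, and over all loci this was so for 36.0% upward and 35.7% downward. The median log2 fold change of the 9 genes was 0.30, beside -0.01 over all loci tested.

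**Figure D2:**
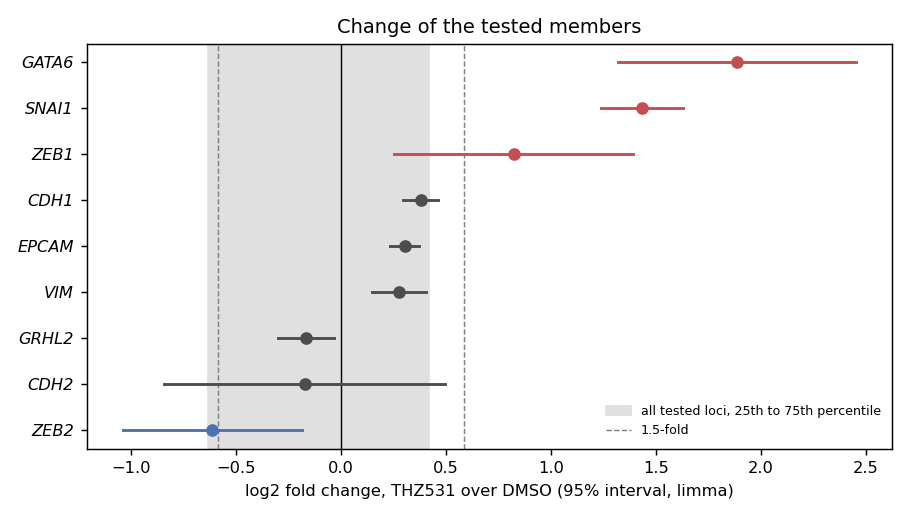
Log2 fold change of the 9 tested genes with its 95% interval (limma), called higher in red, called lower in blue and not called in grey, with the 25th to 75th percentile of all tested loci (-0.63 to 0.42) as a band and 1.5-fold as dashed lines. GATA6, SNAI1 and ZEB1 lie to the right of the band, ZEB2 (-0.61) lies inside it, and the interval of CDH2 spans 0.

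The size of these changes depended on how the libraries were scaled. Scaling each library to the same total moved all THZ531 libraries by -0.24 on the log2 scale, and scaling to RPL34, a ribosomal protein gene used as the reference of the study's qPCR assays, moved them by -0.49. SNAI1 (1.19 and 0.94) and GATA6 (1.65 and 1.399) were called higher under both scalings, whereas ZEB1 (0.58 and 0.34) was called under neither. ZEB2 was called lower under both (-0.85 and -1.10). With RPL34, CDH1, VIM and EPCAM had log2 fold changes of -0.11, -0.21 and -0.19, opposite in sign to those with the deposited scaling, and GRHL2 (-0.66) was called lower. Thus 3 genes were called higher and 1 lower with the deposited scaling, and 2 higher and 2 lower with RPL34. Over all loci 9.38% were called higher and 32.0% lower with the same total, and 6.14% and 42.8% with RPL34. Of the 9 genes, 5 passed the adjusted p threshold of 0.05 (limma) with the same total and 4 with RPL34. The share of all loci that passed it under these scalings is not given here, so these counts are not read as a result about the members.

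**Figure D3:**
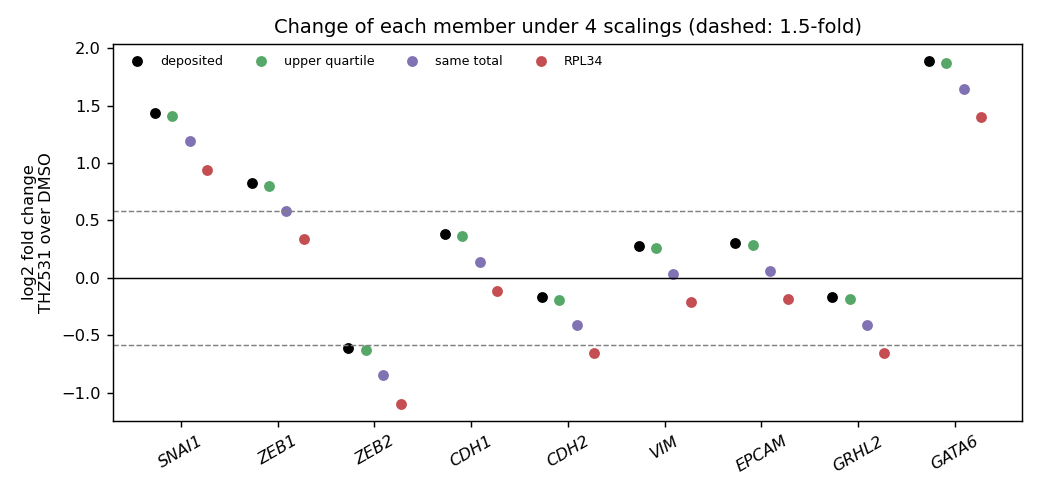
Log2 fold change of each tested gene with the deposited scaling, the upper quartile, the same total and RPL34, with 1.5-fold as dashed lines. SNAI1 and GATA6 stay above the upper dashed line in all 4 scalings, and CDH1, VIM and EPCAM cross 0 with RPL34.

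A difference between 2 genes of the same library does not depend on its scaling. GRHL2 exceeded SNAI1 by 2.18, 2.26 and 2.09 on the log2(value + 1) scale in the DMSO libraries and by 0.46, 0.59 and 0.69 in the THZ531 libraries. The groups were thus far apart, and the mean difference changed by -1.60, from 2.18 ± 0.083 to 0.58 ± 0.12 (SD, n = 3, two-sided exact permutation test, p = 0.1, which is the lower limit for 3 libraries against 3). CDH1 exceeded CDH2 by 6.75 ± 0.39 in DMSO and by 7.30 ± 0.38 in THZ531, and the groups overlapped (exact permutation test, p = 0.2). EPCAM exceeded VIM by 3.62 ± 0.11 in DMSO and by 3.64 ± 0.058 in THZ531, a change of 0.03 that was smaller than the spread between replicates (exact permutation test, p = 0.8). With 3 libraries per group the exact permutation test cannot give a p below 0.1, so it does not decide whether either difference shifted. CDH1 minus CDH2 was 7.20, 6.50 and 6.55 in DMSO replicates 1, 2 and 3. It was 7.69, 6.94 and 7.27 in THZ531 replicates 1, 2 and 3, each above the same-numbered DMSO library. Between same-numbered libraries, EPCAM minus VIM differed in both directions. Whether these libraries were handled as pairs is not known, and no paired test is given here.

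**Figure D4:**
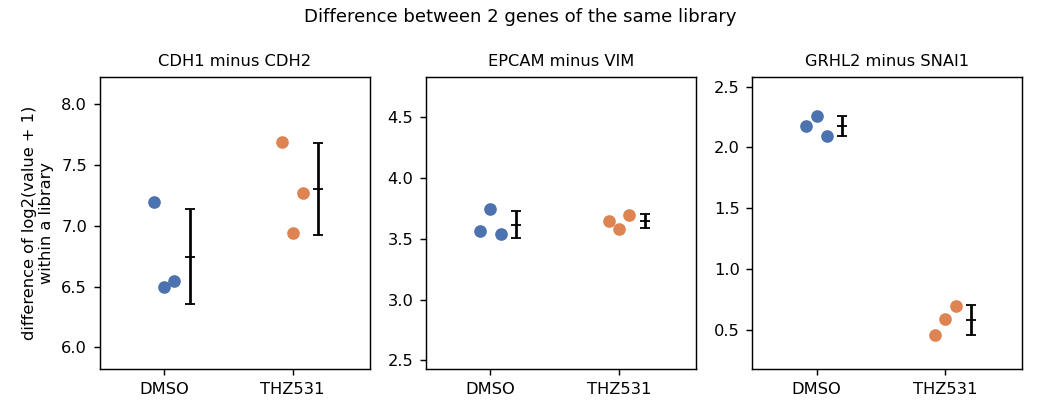
Difference of log2(value + 1) between 2 genes of the same library, in each DMSO library (blue) and THZ531 library (orange), with mean and SD in black and panels of equal height in log2 units. The groups separate for GRHL2 minus SNAI1 and overlap for CDH1 minus CDH2 and EPCAM minus VIM.

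Levels of different genes were compared as normalized reads per kilobase of the exons of the MANE transcript. In DMSO the order was EPCAM (13718 ± 350.4), CDH1 (1073 ± 26.7), VIM (804 ± 63.5), GRHL2 (246 ± 10.2), SNAI1 (167 ± 3.6), GATA6 (19.9 ± 10.6), ZEB2 (13.8 ± 0.51), CDH2 (12.0 ± 2.9), ZEB1 (8.6 ± 2.3) and SNAI2 (0.28 ± 0.49) reads per kilobase (SD, n = 3). Neighbours did not overlap from EPCAM down to SNAI1, whereas GATA6 overlapped ZEB2, ZEB2 overlapped CDH2, and CDH2 overlapped ZEB1. In THZ531 the level of SNAI1 (451 ± 27.0) lay above that of GRHL2 (219.7 ± 6.2), without overlap, and ZEB1 (15.1 ± 2.6) lay above ZEB2 (9.1 ± 1.6). GATA6 (68.5 ± 5.5) then lay above ZEB1, CDH2 and ZEB2 in every library, while CDH2 (10.6 ± 2.9) overlapped both ZEB genes. EPCAM, CDH1 and VIM thus held the first 3 ranks in both groups. The exon lengths are those of GENCODE, while the reads were counted on FAST DB genes, so the levels per length are approximate.

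The genes differ widely in length. SNAI1 spans 5.91 kb with 3 exons, VIM 9.35 kb, EPCAM 17.7 kb, GATA6 32.9 kb, CDH1 98.2 kb, ZEB2 136 kb, GRHL2 177 kb, ZEB1 211 kb and CDH2 226 kb in the MANE transcript, and the median over 13246 tested loci with a MANE transcript was 27.6 kb. The longest introns were 141.7 kb in ZEB1, 133.8 kb in CDH2, 87.2 kb in ZEB2, 63.3 kb in CDH1 and 50.5 kb in GRHL2. The 4 genes above 100 kb were ZEB1, which was called higher, ZEB2, which was called lower, and CDH2 and GRHL2, which were not called. Among the 2222 tested loci above 100 kb with a MANE transcript, 12.1% were called higher and 24.8% lower. Over these 13246 loci, those with a MANE transcript, the median log2 fold change was 0.06 below 10 kb, -0.01 from 10 to 100 kb and -0.08 above 100 kb. The table gives 1 value per gene, so that reads of retained introns or of transcripts that end early cannot be told apart from those of full-length transcripts.

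The table holds 8 other loci that overlap the members, of which 5 had no read in any library and 3 had no symbol. SNAI1, SNAI2, CDH1, CDH2, GRHL2 and GATA6 overlap no other locus. ZEB1-AS1 (chr10:31307717-31320447), which covers the start of ZEB1, was at 40.5, 59.4 and 38.3 normalized reads in DMSO and at 34.01, 23.9 and 15.9 in THZ531. It was called lower while ZEB1 was called higher with the deposited scaling, with a log2 fold change of -0.91 (SE 0.36, adjusted p = 0.035, limma). VIM-AS1 overlaps the start of VIM and was at 115.5 ± 16.9 in DMSO and 102 ± 36.1 in THZ531 (SD, n = 3), with overlapping groups and a log2 fold change of -0.23 (95% interval -0.74 to 0.28). The kit marks strand, but whether strand was used in counting is not given in the sources used here, so reads of a gene and its antisense RNA may not be separated. MIR559 inside EPCAM had at most 3.7 normalized reads, and LOC100505502, ZEB2-AS1 and the loci without a symbol were at 0.

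Genes related to the members were examined in 9 lists with 197 genes, of which 164 were tested. Over all lists 35 genes were called higher and 23 lower with the deposited scaling, 18 and 37 with the same total, and 5 and 54 with RPL34, so the balance of directions was set by the scaling. No set test was made, and the counts below stand beside the shares of all loci called higher and lower, which were 15.7% and 23.9% with the deposited scaling, 9.38% and 32.0% with the same total, and 6.14% and 42.8% with RPL34.

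**Figure D5:**
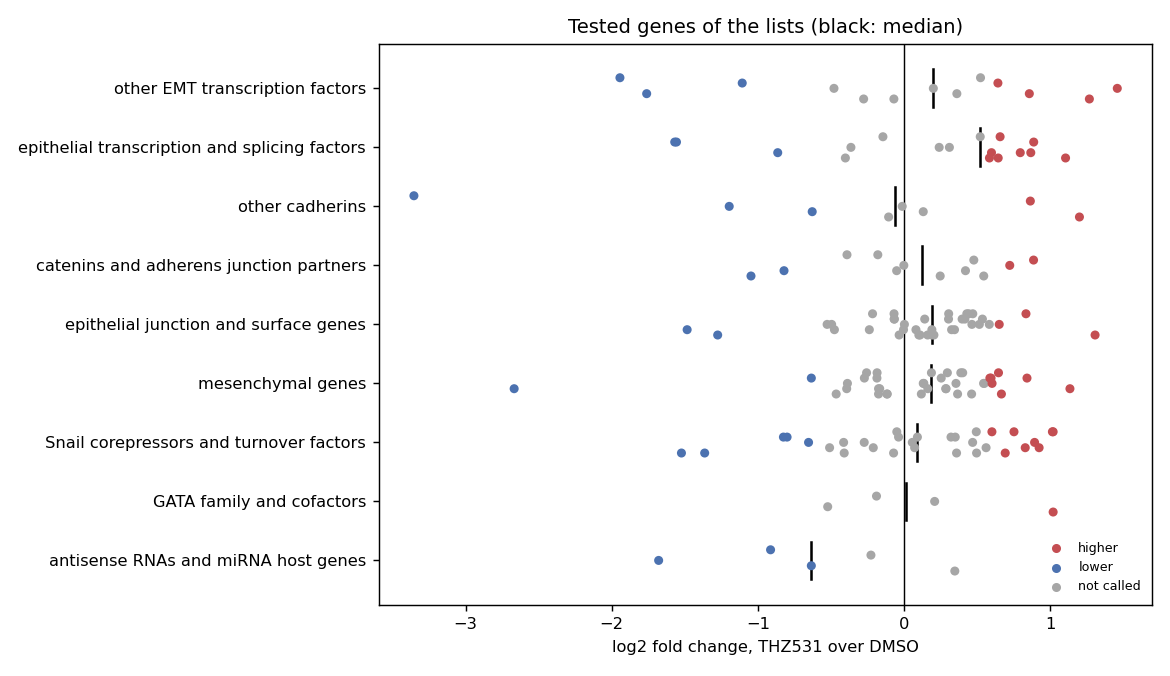
Log2 fold change of the tested genes of the 9 lists with the deposited scaling, called higher in red, called lower in blue and not called in grey, with the list median in black. Most lists hold called genes on both sides of 0, and the epithelial transcription and splicing factors have the highest median (0.52).

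Among 17 other EMT transcription factors 13 were tested, and 4 were called higher and 3 lower (3 and 4 with the same total, 2 and 5 with RPL34), with a median of 0.20. SOX4 rose from 4172 ± 175 to 11487 ± 759 normalized reads (SD, n = 3), with a log2 fold change of 1.46 (SE 0.049). FOXC1, a forkhead factor, rose from 3370.0 ± 177 to 8127 ± 528, with a log2 fold change of 1.27. FOXQ1, another forkhead factor, had a log2 fold change of 0.86. SOX9 (0.64) was also called. The genes that fell were KLF8 (-1.94), SNAI3 (-1.76) and HMGA2, a chromatin architecture gene, which fell from 19421 ± 2638 to 8957 ± 35.7 (-1.11). SNAI3, the remaining Snail gene, was at 15.1, 44.5 and 18.4 normalized reads in DMSO and at 11.3, 3.4 and 5.7 in THZ531. KLF8 was also weak, at 53.4 ± 7.65 in DMSO and 13.4 ± 3.8 in THZ531 (SD, n = 3). With the minimum raised to 50, 1 gene of this list was called lower. SOX9 and SNAI3 were named after their values were seen. TWIST2, PRRX1, FOXC2 and TBXT did not pass the minimum for expression.

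The transcription and splicing factors of epithelial cells comprised 19 genes, of which 17 were tested, 8 were called higher and 3 lower (3 and 5 with the same total, 1 and 6 with RPL34), with a median of 0.52. Without DMSO replicate 1, 5 were called higher. EHF, an ETS factor of epithelia, rose from 803 ± 50.1 to 1729 ± 50.2 normalized reads (SD, n = 3), with a log2 fold change of 1.11 (SE 0.066). The grainyhead factor GRHL1 (0.87) also rose, from 1221 ± 76.5 to 2229 ± 82.0, while its relative GRHL2 was lower, as given above. The genes that fell include the RNA-binding proteins ESRP2 and RBM47, which act in splicing and RNA processing. ESRP2 fell from 4977 ± 211 to 1677 ± 96.8, a log2 fold change of -1.57 (SE 0.054), and RBM47 from 1139.6 ± 100.4 to 390.0 ± 72.1 (-1.56, SE 0.12). TP63 also fell (-0.86). RBM47 was also chosen by the study from these libraries for its qPCR assays, which used separate OVCAR3 cells.

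Of 21 other cadherins only 8 were tested, and 2 were called higher and 3 lower (1 and 3 with the same total, 0 and 4 with RPL34). Just 1 was called higher without any one of the libraries other than DMSO replicate 2. CDH6, a cadherin of kidney and ovarian cancers, fell from 32275 ± 369.8 to 14091 ± 545 normalized reads (SD, n = 3), with a log2 fold change of -1.196 (SE 0.035, adjusted p = 2.4e-13, limma). CDH18 fell and CDH24 rose, with log2 fold changes of -0.63 and 0.86. CDH26 (-3.35) and CDH16 (1.201), named after their values were seen, had at most 44.5 and 22.7 normalized reads in any library.

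The catenins link cadherins to actin, and with their partners they gave 12 tested genes of 14, of which 2 were called higher and 2 lower (1 and 3 with the same total, 0 and 4 with RPL34). CTNNB1, the gene of beta-catenin, rose from 24619 ± 2266 to 40556 ± 298 normalized reads (SD, n = 3), with a log2 fold change of 0.72 (SE 0.049), and NECTIN3 rose by 0.89 on the log2 scale. VCL, the gene of vinculin, fell from 16714 ± 345 to 9461 ± 73.1 (-0.82, SE 0.034), and PLEKHA7, an adherens junction protein, had a log2 fold change of -1.05. With RPL34 no gene of this list was called higher.

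All 37 junction and surface genes of epithelia were tested, and 32 of them were not called. CLDN4, a claudin of tight junctions, rose from 12992 ± 1222 to 32090.1 ± 1604 normalized reads (SD, n = 3), with a log2 fold change of 1.31 (SE 0.055). DSC2 (0.83) and ST14 (0.65) were called higher, and TJP3 (-1.48) and MARVELD2 (-1.27), both of tight junctions, were called lower. The median of the list was 0.19. With adjusted p ≤ 0.05 (limma) 24 of the 37 genes were higher and 7 lower, beside 34.6% and 34.1% of all loci. The called genes numbered 2 higher and 5 lower with the same total, and 1 and 7 with RPL34.

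Of 43 mesenchymal genes 37 were tested, of which 7 were called higher and 2 lower (2 and 5 with the same total, 1 and 12 with RPL34), with a median of 0.19. Those called higher numbered 4 without DMSO replicate 2, with edgeR or with the upper quartile. COL1A1 rose from 995 ± 47.5 to 2190.4 ± 141 normalized reads (SD, n = 3), with a log2 fold change of 1.14 (SE 0.064), LOX, a collagen crosslinking enzyme, had 0.84 and WNT5A 0.67. WNT5B fell from 43.8 ± 9.2 to 7.8 ± 7.2 (-2.67, SE 0.56), and CALD1, the gene of caldesmon, had -0.63. FN1, LUM, DCN, PDGFRB, COL5A1 and COL5A2 did not pass the minimum. Of 9 fibroblast markers, which share genes with this list, 6 passed and none was at 0 in all libraries, and their summed level was 1943 to 2288 in DMSO and 3518 to 3883 in THZ531, led by COL1A1. Without COL1A1 it was 932.5 to 1346.0 in DMSO and 1341.3 to 1615.9 in THZ531. Their part in these values was not tested.

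Of the 31 corepressors and turnover factors of the Snail proteins, all were tested, and 8 were called higher and 5 lower (5 and 8 with the same total, 0 and 10 with RPL34), with a median of 0.09. EED, a subunit of the Polycomb repressive complex PRC2, rose from 947 ± 98.9 to 1918 ± 124 normalized reads (SD, n = 3), with a log2 fold change of 1.02 (SE 0.077). The kinase genes CSNK1E (1.02) and LATS2 (0.92) were also called higher. USP27X, a deubiquitinase, fell from 449 ± 59.2 to 155 ± 10.4 (-1.52, SE 0.13), and PRKD1 (-1.36) and LOXL3 (-0.82) were lower as well. PRKD1 was weak, at 52.9 ± 16.6 in DMSO and 19.7 ± 5.4 in THZ531 (SD, n = 3).

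In the GATA family and its cofactors 4 of 8 genes were tested. GATA2 was called higher, from 66.0 ± 8.8 to 136 ± 27.2 normalized reads (SD, n = 3), with a log2 fold change of 1.02 (SE 0.22, adjusted p = 0.00054, limma), and the other 3, GATA5, ZFPM1 and TRPS1, were not called. Without DMSO replicate 2, 1 gene of the list was called lower. With RPL34 GATA2 was not called. GATA4, which often acts beside GATA6, had at most 2.5 normalized reads in any library, and GATA6-AS1, which does not overlap GATA6 in the table, had at most 3.4.

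Of 7 antisense RNAs and microRNA host genes 5 were tested, none was called higher and 3 were lower. MIR205HG, the host gene of the miR-205 sequence printed above, fell from 900.5 ± 96.5 to 578 ± 31.1 normalized reads (SD, n = 3), with a log2 fold change of -0.63 (SE 0.089, adjusted p = 9.4e-06, limma). MIR200CHG, the host of miR-200c and miR-141, was at 48.4, 99.3 and 75.8 in DMSO and at 104.5, 81.8 and 88.7 in THZ531. Its groups overlapped, and it was not called (log2 fold change 0.35, SE 0.26). SNAI3-AS1 (-1.68) was lower, as was ZEB1-AS1, and both were weak. The mean of SNAI3-AS1 was 43.1 ± 18.6 in DMSO and 13.1 ± 6.1 in THZ531 (SD, n = 3). With the minimum raised to 50, 1 gene of this list was called lower. With RPL34, 4 genes of this list were called lower.

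The loci with a symbol whose profile over the 6 libraries was nearest to that of GATA6 were PNMT, SNORA71D and KRTAP2-3, at Euclidean distances of 0.42, 0.58 and 0.64 on the log2(value + 1) scale relative to the DMSO mean. PNMT and SNORA71D had means of 6.0 and 6.4 normalized reads in DMSO. Nearest to ZEB2 were DHRS7B (0.18), C10orf55 (0.18) and SEMA4A (0.19), with log2 fold changes of -0.67, -0.66 and -0.61. With 6 libraries in 2 groups such likeness mainly reflects the difference between the groups.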

How the data were processed

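RNA-seq libraries of OVCAR3 cells (3 with DMSO, 3 with THZ531) were prepared by the authors with a stranded polyA kit, mapped to hg38 with STAR (2.7.5a per the labels) and counted with featureCounts on FAST DB genes. The deposited values are a signal, namely counts divided by a DESeq2 size factor per library. In every library 100% of the values came out as whole multiples of 1 step (tolerance 0.1), so reads were recovered, and all value columns were used.

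Loci that reached 10 in 3 or more libraries were tested on log2(value + 1) with limma 3.58.1 (trended variance, R 4.3.3), without covariates. On this scale changes of weak genes are understated. Called means 1.5-fold or more with a limma p-value no higher than 0.05 before adjustment, the thresholds of the study. Adjusted p-values are Benjamini-Hochberg values over all 17568 loci. The fit was tested on simulated data. Differences between genes were tested with exact permutation tests (scipy 1.17.1). With edgeR 4.0.16 and DESeq2 1.42.0 the recovered reads were tested as alternatives.

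The members, lists and tests were chosen with earlier results of these data known. Named are all members, every locus that overlaps them, the 3 called genes per list and direction with the largest fold change and a mean of at least 20, and the 3 nearest profiles. A gene that this rule names is not reported here.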

Additional observations from a re-analysis of the deposited data

How the results depend on the processing

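The alternatives were other pseudocounts, minima and scalings, limma without a trend, a replicate block, edgeR, DESeq2, a fold of 2, the adjusted p, and leaving out each library. The fold changes of the members were recomputed under all of these except the fold of 2 and the adjusted p, which gave 153 values. Of these, 143 kept their direction and stayed called or not called, although p (limma) was 0.57 for VIM and 0.074 for EPCAM with the same total. Those of CDH1, VIM and EPCAM with RPL34 (-0.11, -0.21 and -0.19) changed sign, as did CDH2 without THZ531 replicate 1 (-0.381 to 0.026 with each library left out). Scaling to RPL34 moves every locus by -0.49 by construction, and for CDH2 the cause was not tested. No member was called lower with a pseudocount of 10, a fold of 2 or without THZ531 replicate 2 (0, and 0 to 1 with each library left out), and 2 with RPL34. The adjusted p threshold (limma) was passed by 5 members with the same total and 4 with RPL34, without a share of all loci beside these counts. The genes of all lists called higher and lower numbered 18 and 37 when scaled to the same total, 5 and 54 when scaled to RPL34, and 9 and 14 for a fold of 2. The difference of EPCAM and VIM changed by -0.012 to 0.09 with each library left out. Over all loci tested, same-numbered libraries did not deviate together (correlations of 0.002, 0.019 and -0.039). This does not show whether same-numbered libraries were handled as pairs. With the replicate block 3 members were called higher and 1 lower, as without it. Of 342 list counts, 291 stayed within 1.5 times. Reads limit CDH2 and SNAI2 most.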
